A study of Mus musculus with 20 samples.

Results

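Transcription factor genes that set or mark regions of the foregut and stomach were followed through a set of mouse gastric organoid lines, and are described here across genotype and dysplasia. They were the rows named Pdx1, Gata4, Gata5, Gata6, Irx3, Irx5, Hnf4a, Foxa1 and Foxa2, 9 of the 24047 genes in the count table, and all 9 passed the filters on low counts, Irx5 in the fit on libraries only through line 794. Gastric organoids are epithelial cultures grown from stomach tissue. The 20 mRNA libraries came from 8 lines of the BL/6 strain, all grown in conditioned medium, and the number that opens a library's name was read as its line. Lines 794 and 801 carried a p53 knockout (KO) made in vivo and were dysplastic, with 3 libraries each. Line 650 carried a KO made in vivo and was non-dysplastic, and line 1270 carried a KO made ex vivo and was non-dysplastic, with 2 libraries each. Lines 565 and 752 were wild type (WT) and dysplastic, with 3 libraries each, and lines 300 and 1269 were WT and non-dysplastic, with 2 libraries each. The ex vivo KO is represented by line 1270 alone, so that mode of KO and line cannot be told apart. The labels do not give the allele or the stomach region of origin, nor do they say that each line is from an animal of its own. The p-values therefore cover the variation among these cultures only, part of which can be technical.

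The foregut is patterned along its length before the stomach, duodenum, pancreas and liver form. FOXA1 and FOXA2 are pioneer factors that open chromatin throughout the endoderm, and GATA4, GATA5 and GATA6 are zinc-finger factors that act with them. HNF4A is a nuclear receptor of the glandular epithelium of the gut and of the liver. PDX1 is a homeodomain factor of the antrum (the distal stomach), the duodenum and the pancreas, and is not a factor of the corpus (the acid-secreting body) or of the squamous forestomach. IRX3 and IRX5 are Iroquois homeodomain factors whose genes lie in one cluster and which pattern several organs. The question put to these genes was which region of the stomach each line resembles.

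Promoter sequences from RefSeq (assembly GRCm38.p6, 250 bases before to 50 bases after each transcription start) were matched for 6 of the 9 genes, and not for Gata4, Gata6 and Irx5. Those of Pdx1 and Gata5 are shown because these genes differed among lines, and both of Hnf4a because its gene count adds transcripts of 2 starts that are known to differ in use between tissues. Coordinates are on that assembly, not on the build used for the counts. Capitals mark any match, on either strand, to the letters GATAA (GATA factors), TGTTTNC (FOXA factors), CAAAGTCCA (HNF4) or TAATTA (homeodomain factors).
Pdx1, chr5:147269847-147270146, plus strand: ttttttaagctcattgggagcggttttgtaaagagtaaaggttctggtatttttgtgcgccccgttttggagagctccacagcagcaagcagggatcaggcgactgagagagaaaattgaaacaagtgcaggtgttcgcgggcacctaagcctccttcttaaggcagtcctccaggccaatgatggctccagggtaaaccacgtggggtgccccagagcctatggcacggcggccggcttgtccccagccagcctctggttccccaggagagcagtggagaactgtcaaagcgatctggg
Gata5, chr2:180334630-180334929, minus strand: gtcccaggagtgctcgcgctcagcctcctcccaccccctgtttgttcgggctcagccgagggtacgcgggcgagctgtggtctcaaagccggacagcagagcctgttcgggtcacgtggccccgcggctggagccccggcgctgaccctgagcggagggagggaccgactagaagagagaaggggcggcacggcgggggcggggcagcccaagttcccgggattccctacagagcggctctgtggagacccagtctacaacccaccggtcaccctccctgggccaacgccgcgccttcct
Hnf4a, upstream start, chr2:163506607-163506906, plus strand: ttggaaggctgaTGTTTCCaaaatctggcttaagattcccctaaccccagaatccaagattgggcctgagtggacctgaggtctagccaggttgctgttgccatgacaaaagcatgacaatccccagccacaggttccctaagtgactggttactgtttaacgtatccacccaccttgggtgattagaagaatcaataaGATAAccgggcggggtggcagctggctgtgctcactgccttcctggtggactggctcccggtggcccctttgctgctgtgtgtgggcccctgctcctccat
Hnf4a, downstream start, chr2:163546905-163547204, plus strand: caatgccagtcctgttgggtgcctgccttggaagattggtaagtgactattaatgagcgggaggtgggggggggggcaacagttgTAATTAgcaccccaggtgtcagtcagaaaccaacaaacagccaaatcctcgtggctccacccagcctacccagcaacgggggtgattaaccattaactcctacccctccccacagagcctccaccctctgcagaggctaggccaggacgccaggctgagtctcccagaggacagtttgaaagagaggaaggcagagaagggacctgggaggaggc
The Pdx1 and Gata5 windows held none of these letters. The upstream Hnf4a window held TGTTTNC at base 13 and GATAA at base 200, counted from the start of the window, and the downstream window held TAATTA at base 86. No 2 of these matches overlapped. Among 32851 promoter windows of the same length, GATAA occurred in 25.4%, TGTTTNC in 20.5%, CAAAGTCCA in 0.475% and TAATTA in 5.29%. Such a match describes letters and does not show binding.

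The libraries held between 5670000 and 16300000 counts, and the lines, as sums of their libraries, between 22200000 and 36900000. Levels are CPM, which is the counts of a gene scaled to a common library total after TMM normalisation. Trp53, the gene of p53, read between 4.30 and 33.8 CPM in the 10 KO libraries, against 101 to 163 CPM in the 10 WT libraries, so the genotype labels and the counts went the same way. In 6 lines the last-numbered library stood apart from its sister libraries on the first principal component, which held 29.3% of the variance. These were libraries numbered 3 in lines 794, 801, 565 and 752 and libraries numbered 2 in lines 650 and 300. No library of lines 1270 and 1269 was counted among them, but the set was fixed without a numeric cut-off. Library 3 of line 565 lay at 1.6 on that component, against -15.9 and -21.1 in its sisters, and the libraries of line 1269 at -32.3 and -18.3. By chi-square per degree of freedom, the pairs of lines 1269 (37.7) and 1270 (68.8) differed more than library 3 of line 565 did from its sisters (24.7 and 28.1). Simple epithelial genes (Epcam, Cdh1, Cldn7 and 4 keratins) summed to 11170 to 16230 CPM in every line, and 7 immune genes to at most 1.59 CPM. The acid pump subunit Atp4b, which defines parietal cells, had 0 counts in every line, and the other subunit, Atp4a, read 0.676 to 1.87 CPM. The basal squamous markers Trp63 and Krt5 reached at most 0.357 and 1.07 CPM. Other genes of the squamous list were higher, with Krt4 at 6.86 to 129 CPM and Ivl at 3.85 to 46.9 CPM, and the 9 genes summed to 51.1 to 188 CPM.

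Every line held transcripts of the endodermal factors, whereas the Iroquois genes were near the limit of detection. Per kilobase of exon, Foxa1 was highest with 67.5 ± 9.47 CPM per kb (SD, n = 8 lines), followed by Hnf4a with 57.0 ± 5.88 and Gata4 with 50.3 ± 15.4 CPM per kb. Gata5 averaged 32.7 ± 7.60, Gata6 25.4 ± 4.73, Foxa2 23.6 ± 2.67 and Pdx1 15.0 ± 4.54 CPM per kb. Irx3 averaged 0.252 ± 0.130 and Irx5 0.0692 ± 0.145 CPM per kb. These are levels of bulk RNA, in which fewer expressing cells and less RNA per cell cannot be told apart.

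Pdx1 and Gata5 differed among the 8 lines beyond the spread between libraries of a line. In edgeR's quasi-likelihood F test with libraries as samples they were 2 of the 8 members other than Irx5, against 3128 of all 13141 genes tested (23.8%), a share near that background. Irx5 also passed, and is left out of this count because only the line in which it is highest took it past the filter. The test compares these lines with one another and says nothing of genotype or dysplasia. Libraries of one line are not separate lines, and its p-values rest on their spread alone.

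Pdx1, the antral and duodenal factor, was present in all 8 lines and lowest in lines 1270 and 1269. Its levels were 44.0 CPM in line 794, 31.6 CPM in line 801, 40.0 CPM in line 650 and 13.9 CPM in line 1270 among KO lines, against 35.4 CPM in line 565, 39.2 CPM in line 752, 31.9 CPM in line 300 and 23.3 CPM in line 1269 among WT lines. The libraries of line 1270 read 13.6 and 14.1 CPM and those of line 1269 read 24.8 and 21.2 CPM, which overlapped neither each other nor the libraries of any other line. In the 6 other lines the libraries lay between 26.7 and 48.8 CPM, and each line overlapped its neighbour in the order of levels. The adjusted p among lines was 0.00104 in edgeR's F test, and the highest line stood 3.16-fold above the lowest. The call was lost without line 1270 (adjusted p 0.0745) and without lines 1269 and 1270 (0.584). With all 8 lines kept, the call was also lost without the libraries numbered 1 or 2. Either of these runs leaves a single library in each of lines 650, 1270, 300 and 1269, so that fewer libraries give the spread. The loss of a call there can reflect this alone. The Pdx1 call held without line 1269 (0.00272) and without the 6 libraries that stood apart (0.00216).

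**Figure D1:**
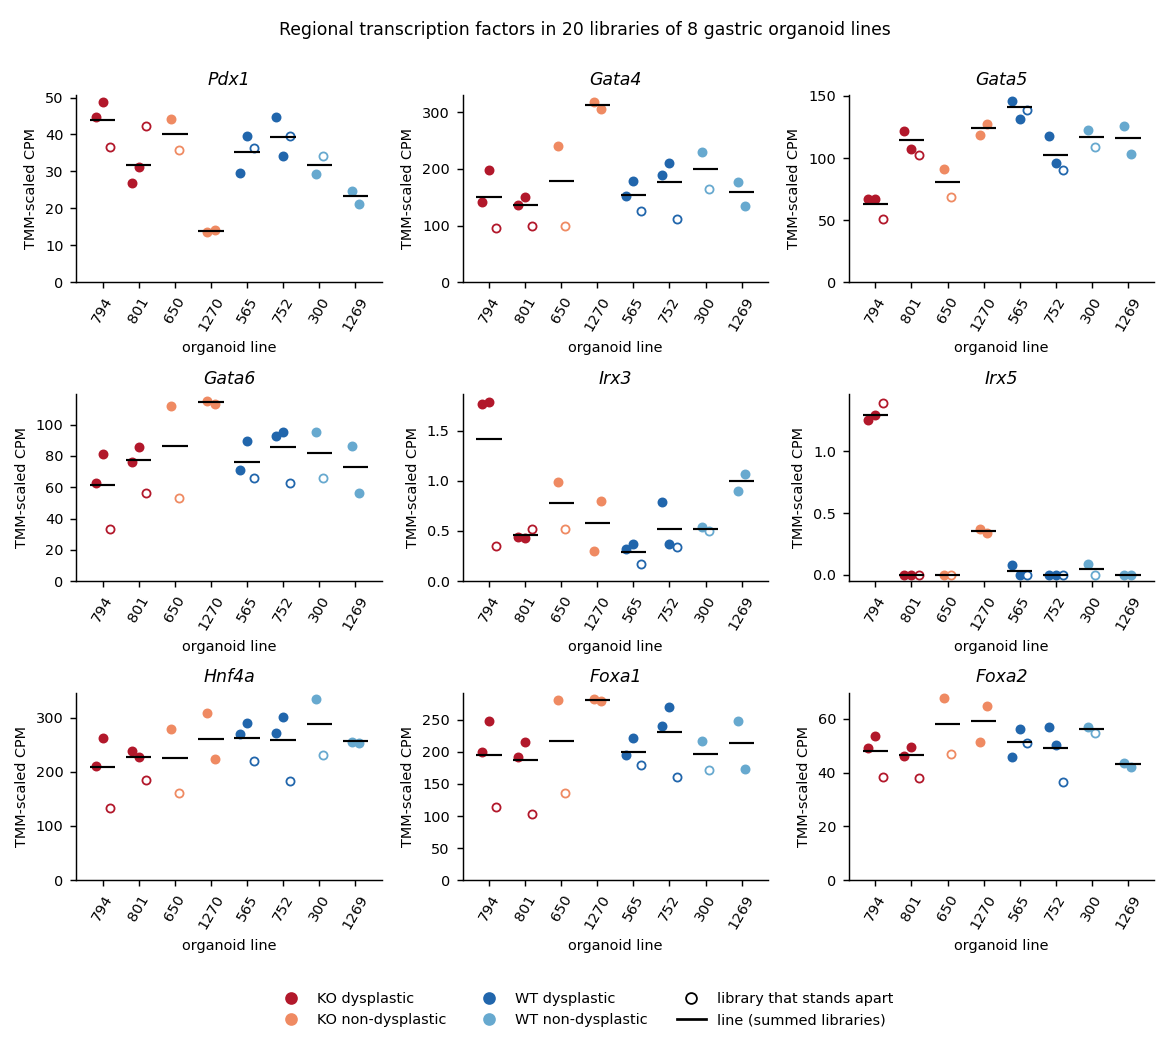
Level of each of the 9 genes (TMM-scaled CPM, linear axes that differ between panels) in every library, by organoid line, with KO lines left of WT lines. Points are libraries, open points are the 6 libraries that stood apart, and bars are the summed lines. Pdx1 lies at 13.6 and 14.1 CPM in the libraries of line 1270, Gata5 is lowest in line 794, and Irx5 counts lie mainly in lines 794 and 1270.

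Gata5, an endodermal GATA factor, was lowest in line 794 and highest in line 565. It read 63.0 CPM in line 794, 114 CPM in line 801, 80.5 CPM in line 650 and 124 CPM in the ex vivo KO line 1270, against 141 CPM in line 565, 102 CPM in line 752, 117 CPM in line 300 and 117 CPM in line 1269. The 3 libraries of line 794, from 51.3 to 67.4 CPM, lay below every other library, and the 3 of line 565, from 132 to 146 CPM, lay above every other library. The 5 lines 1270, 300, 1269, 801 and 752 overlapped their neighbours in the order of levels. The F test gave an adjusted p of 0.00195 in edgeR. The call was lost without line 794 (0.101). It was also lost without the libraries numbered 1 or 2, where fewer libraries give the spread.

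Gata4 and Gata6, the other two GATA factors measured, were highest in line 1270, and neither passed the test among lines. Gata4 read 149.9 CPM in line 794, 136 CPM in line 801, 178 CPM in line 650 and 313 CPM in the ex vivo KO line 1270, against 154 CPM in line 565, 176 CPM in line 752, 201 CPM in line 300 and 159 CPM in line 1269. Both libraries of line 1270, at 319 and 306 CPM, lay above every other library, of which the highest read 241 CPM. The adjusted p was 0.196 in edgeR's F test over all libraries and 0.0123 without the 6 libraries that stood apart, where line 650 read 242 CPM (its first library alone) and line 1270 read 311 CPM. Gata6 ranged from 61.7 CPM in line 794 to 114 CPM in line 1270, with an adjusted p of 0.631, and both libraries of line 1270, at 115 and 113 CPM, lay above the others, the nearest of which read 112 CPM.

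Hnf4a, Foxa1 and Foxa2 varied least. Hnf4a read 209 CPM in line 794, 227 CPM in line 801, 226 CPM in line 650 and 261 CPM in the ex vivo KO line 1270, against 262 CPM in line 565, 258.5 CPM in line 752, 288 CPM in line 300 and 257 CPM in line 1269. The KO lines 794, 801 and 650 lay below every WT line and line 1270 lay among them. Each of those 3 KO lines holds a library that stood apart, as do WT lines 565, 752 and 300. Without such libraries line 650 read 282 CPM, above WT line 1269 at 256 CPM. Lines 794 and 801, at 241 and 239 CPM, then still lay below every WT line. The highest line stood 1.38-fold above the lowest for Hnf4a, 1.51-fold for Foxa1 and 1.36-fold for Foxa2. Foxa1 ranged from 187 CPM in line 801 to 282 CPM in line 1270, and Foxa2 from 43.3 CPM in line 1269 to 59.0 CPM in line 1270. None of these passed among lines, with adjusted p-values of 0.908 for Hnf4a, 0.881 for Foxa1 and 0.645 for Foxa2 in edgeR's F test.

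The Iroquois genes differed from the other members in being nearly silent. Irx5 had 17, 16 and 12 counts in the libraries of line 794 and 5 and 6 counts in those of line 1270. It had a single count in the first library of line 565 and in that of line 300, and 0 counts in the other 13 libraries. This came to 1.30 CPM in line 794 and 0.356 CPM in line 1270. The sums of lines 801, 650, 752 and 1269 held 0 counts, which allows at most 3 counts, or 0.0979, 0.130, 0.0823 and 0.119 CPM in that order. The adjusted p among lines was 0.000696 in edgeR's F test and 0.000244 with no low-count filter. Without line 794 the gene fell below that filter. The call was also lost without the libraries numbered 1 or 2, where fewer libraries give the spread. Irx3 had 2 to 24 counts in every library, and between 10 counts in line 565 and 49 counts in line 794 as line sums, or 0.290 to 1.41 CPM. The libraries of line 794 read 1.76, 1.78 and 0.348 CPM, so the last of these lay among those of the other lines, and the adjusted p was 0.121. These values rest on few counts, and the limits given cover counting error only.

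Considered by line, the ends of the order fell to different genes in different lines. Line 794 had the highest Pdx1, Irx3 and Irx5 and the lowest Gata5, Gata6 and Hnf4a. Line 1270 had the lowest Pdx1 and the highest Gata4, Gata6, Foxa1 and Foxa2. Gata4 and Foxa1 were lowest in line 801, Foxa2 in line 1269 and Irx3 in line 565, whereas Gata5 was highest in line 565 and Hnf4a in line 300. Some of these ranks turned without the 6 libraries that stood apart, none of which belongs to lines 1270 and 1269. Line 650 was then highest for Foxa2 (68.4 CPM, against 58.8 CPM in line 1270) and for Foxa1 (283 CPM, against 281 CPM in line 1270). The lowest Gata6 was then in line 1269 (72.5 CPM, against 73.2 CPM in line 794) and the lowest Hnf4a in line 801 (239 CPM, against 241 CPM in line 794). Over all libraries, lines 1270 and 1269, the lowest for Pdx1, were highest and lowest for Foxa2, at 59.0 and 43.3 CPM. Each line overlapped its neighbour in that order, and Foxa2 did not pass among lines (adjusted p 0.645 in edgeR's F test).

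Other regional genes were read beside Pdx1 in the same lines. Of 5 antral genes 4 differed among lines in edgeR's F test, namely Nkx6-3, Isl1, Aqp5 and Gast, and Lgr5 did not. Over all genes the share was 3128 of 13141 (23.8%), and the list was chosen with earlier results of these data known. Nkx6-3, a homeodomain factor of the antrum, read 138 CPM in line 794, 96.6 CPM in line 801, 125 CPM in line 650 and 4.79 CPM in the ex vivo KO line 1270, against 129 CPM in line 565, 128 CPM in line 752, 131 CPM in line 300 and 0.0795 CPM in line 1269, where it rested on 2 counts (adjusted p 6.27e-08). Lines 1270 and 1269, the lowest for Pdx1, were thus also the lowest for Nkx6-3, in the order reversed between them. Isl1, a LIM homeodomain factor, went the other way, with 19.8 CPM in line 1270 and at most 0.894 CPM in the other KO lines, against 17.7 CPM in line 1269 and at most 2.15 CPM in the other WT lines (adjusted p 1.35e-08). Gast, the hormone gene of antral G cells, had 0 counts in lines 794, 1270 and 1269 and at most 0.816 CPM elsewhere (adjusted p 0.0461). Aqp5, a water channel of antral glands, was highest in line 794 with 770 CPM and lay between 70.5 and 315 CPM in the other lines (adjusted p 6.32e-05).

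Genes of the fundus and corpus were not uniformly high in the lines with low Pdx1. Of 11 such genes listed 10 were in the table, 5 could be tested and 3 differed among lines, against 23.8% of all 13141 genes. Pgc, the pepsinogen of chief cells, read 49.2, 32.0, 40.9 and 354 CPM in KO lines 794, 801, 650 and 1270, against 74.4, 40.9, 334 and 11.6 CPM in WT lines 565, 752, 300 and 1269. Gif, which encodes the intrinsic factor made by chief cells in mice, was highest in line 1270 with 609 CPM and next in line 300 with 206 CPM, and lowest in line 794 with 2.83 CPM. Line 1269 therefore combined low Pdx1 and low Nkx6-3 with the lowest Pgc of the 8 lines, whereas line 1270 combined them with the highest summed Pgc and Gif, and line 300 had high Pgc and Gif with Pdx1 and Nkx6-3 in the range of the remaining lines. The 2 libraries of line 1270 differed widely, with Pgc at 126 and 646 CPM and Gif at 162 and 1183 CPM, and overlapped those of line 300, with Pgc between 239 and 434 CPM and Gif between 110 and 309 CPM. Which of these lines is higher therefore depends on 1 library of line 1270. Bhlha15, the chief cell factor MIST1, ranged from 3.37 CPM in line 794 to 30.1 CPM in line 1270. Irx1 and Irx2, Iroquois genes on the same list, reached at most 0.163 and 0.259 CPM.

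**Figure D2:**
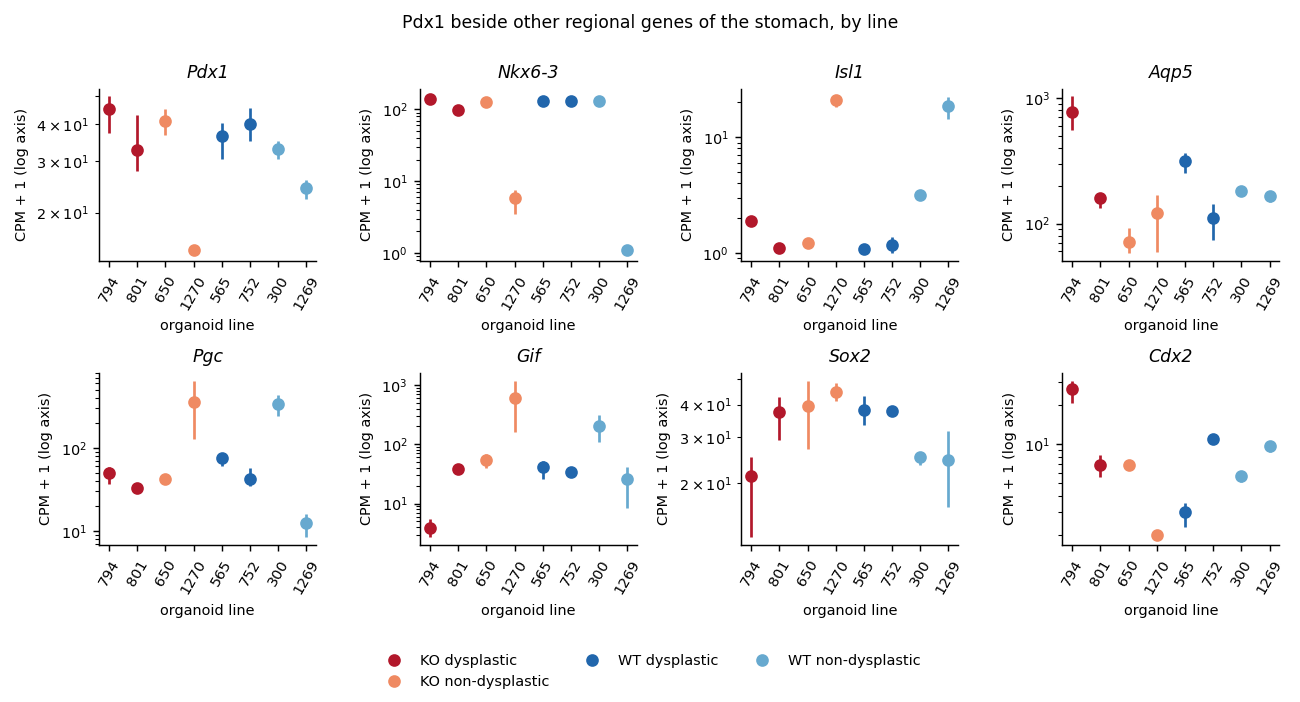
Level of Pdx1 and of 7 other regional genes (CPM + 1, log axes that differ between panels) by organoid line, with KO lines left of WT lines. Points are summed lines and vertical bars run over the libraries of each line. Nkx6-3 is lowest and Isl1 highest in lines 1270 and 1269, where Pdx1 is lowest, and Pgc is high in lines 1270 and 300.

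Genes of neighbouring regions were also read. Sox2, the factor of the anterior foregut and stomach, lay between 20.4 CPM in line 794 and 43.5 CPM in line 1270 and did not pass (adjusted p 0.0864 in edgeR's F test). Cdx2, the intestinal homeodomain factor, read 25.7 CPM in line 794 and 0.971 to 9.95 CPM in the other lines (adjusted p 2.93e-07). Olfm4, an intestinal stem cell gene, read 160 CPM in line 794 and at most 1.00 CPM in the others. Muc2 (4.41 CPM) and Cdh17 (3.78 CPM) of the same list were also highest in line 794. Hnf4g of that list was lowest there, with 6.63 CPM against 10.49 to 16.45 CPM in the other lines. Fabp1 had 1 count in line 794 and 29 counts in line 300. Of the lists read among lines, 6 of 8 tested forestomach genes, 7 of 11 general gastric genes and 6 of 9 intestinal genes passed. So did 3 of 4 genes of other foregut organs and 15 of 24 further foregut transcription factors, against 3128 of all 13141 genes (23.8%). The lists were chosen with earlier results of these data known, so these shares are not read as evidence on region. The 15 include Gata2 and Gata3, with 131 and 71 counts in line 794 and at most 8 and 15 in any other line. Their calls lean on the line in which they are highest. Nkx2-1 and Sftpc of the lung and Cpa1 of the pancreas had 0 counts in every line. Line 794 held the highest level among lines of Gata2 (3.78 CPM) and Gata3 (2.05 CPM), GATA factors of blood and other tissues, of Hhex (15.3 CPM), a factor of liver and pancreas development, and of Pax9 (33.4 CPM), a factor of the squamous foregut. Other genes of the same lists were lowest in line 794, namely the keratins Krt4 (6.86 CPM), Krt14 (0.577 CPM) and Krt6a (0.0288 CPM). So were the factors Prox1 (0.0288 CPM) and Mnx1 (0.548 CPM), and Trp63 had 0 counts there. Krt13, another keratin of the squamous list, was highest in line 794 (8.275 CPM), followed by line 1269 (5.72 CPM).

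Genes known as targets of HNF4A differed among lines while Hnf4a itself did not pass. Of 6 tested, Apoc2, Ttr, Mttp and Apoa1 passed in edgeR's F test, with Ttr, a thyroid hormone carrier, between 1.51 CPM in line 1269 and 38.3 CPM in line 300. Apoc2 had 76 counts in line 794 and at most 14 in any other line. Over all genes 3128 of 13141 (23.8%) passed. Among genes of other cell types, the mesenchymal list of 12 summed to 16.8, 124, 98.2 and 13.5 CPM in KO lines 794, 801, 650 and 1270, against 31.5, 65.8, 12.4 and 9.10 CPM in WT lines 565, 752, 300 and 1269. Acta2 made up 104 and 55.4 CPM of the sums of lines 801 and 650, against 21.6 and 58.2 CPM of those of lines 565 and 752, and at most 4.95 CPM in the other lines. The 7 endocrine genes summed to 0.437 to 11.3 CPM, the 4 endothelial genes to 0.905 to 7.95 CPM. Of the tested genes, 4 of 7 mesenchymal, 4 of 5 endocrine, 2 of 3 endothelial, 3 of 7 simple epithelial and 0 of 1 immune genes passed among lines. The share over all 13141 genes was 23.8%. The endothelial genes that passed include Cdh5, with 61 counts in line 794 and at most 3 in any other line.

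The comparison of KO with WT lines asked whether loss of p53 goes with another regional pattern. None of the 9 genes passed in edgeR's quasi-likelihood test on line sums, and none had an unadjusted p under 0.05. Over all 13476 genes the test called 0 (0%), with 543 at an unadjusted p under 0.05. DESeq2 called 73 genes, none of them a member. Trp53 itself had a log2 fold change of -3.17 ± 0.60 (SE), for which edgeR's adjusted p was 0.739. Pdx1 averaged 32.4 ± 13.3 CPM in KO lines and 32.5 ± 6.79 CPM in WT lines (SD, n = 4 lines each). Its log2 fold change was -0.01 with a 95% interval of -0.79 to 0.77. Line 1270 weighed on that value, which was 0.28 without it and -0.48 without line 650. Hnf4a had the smallest unadjusted p among members with counts in all lines, 0.0925, with a log2 fold change of -0.21 ± 0.11 (SE) and, in edgeR's test, an adjusted p of 1. Gata5 averaged 95.4 ± 28.5 CPM in KO lines and 119 ± 16.0 CPM in WT lines, with a log2 fold change of -0.33 and an interval of -0.89 to 0.24. The values were 0.12 ± 0.20 for Gata4, 0.08 ± 0.14 for Gata6, 0.05 ± 0.12 for Foxa1, 0.07 ± 0.11 for Foxa2 and 0.52 ± 0.51 for Irx3 (log2 fold change ± SE). No fold of Irx5 is read here, since lines of both genotypes held 0 counts and a fitted value depends on the prior count.

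Dysplastic and non-dysplastic lines were compared next. Again 0 of the 9 genes passed, against 0 of 13476 genes (0%), with 797 at an unadjusted p under 0.05 in edgeR's test and 153 genes called by DESeq2, none of them a member. Gata4 averaged 154 ± 16.8 CPM in dysplastic lines and 212 ± 68.9 CPM in non-dysplastic lines (SD, n = 4 lines each), and the lines overlapped. Its log2 fold change was -0.45 with a 95% interval of -0.92 to 0.02, and edgeR's test gave an unadjusted p of 0.0562 and an adjusted p of 0.866. Without lines 1269 and 1270 it was -0.30. Pdx1 averaged 37.6 ± 5.28 CPM in dysplastic lines and 27.3 ± 11.2 CPM in non-dysplastic lines, a log2 fold change of 0.46 with an interval of -0.32 to 1.24. Both lines with the lowest Pdx1 were non-dysplastic, and the log2 fold change was 0.17 without line 1270, 0.94 without line 650 and 0.08 without lines 1269 and 1270. For the other members it was -0.23 ± 0.14 in Gata6, -0.15 ± 0.11 in Foxa2, -0.16 ± 0.12 in Foxa1, -0.11 ± 0.11 in Hnf4a, -0.08 ± 0.24 in Gata5 and -0.22 ± 0.51 in Irx3 (SE).

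**Figure D3:**
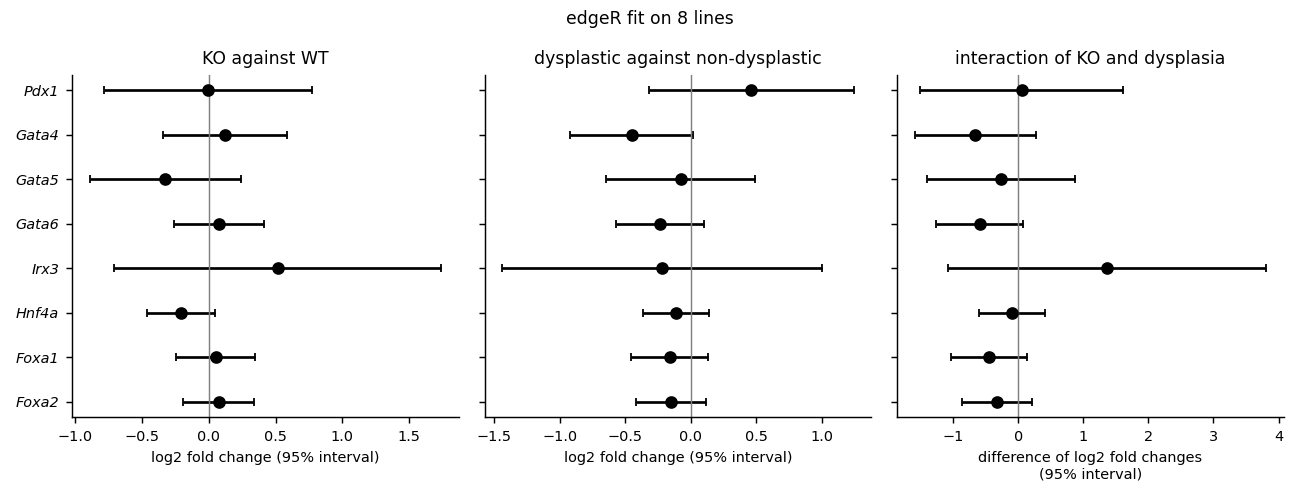
Log2 fold changes of KO against WT lines and of dysplastic against non-dysplastic lines, and the difference of the KO log2 fold changes between dysplastic and non-dysplastic lines, for 8 of the 9 genes (Irx5, with 0 counts in several lines, is left out). Points are estimates and bars 95% intervals from edgeR's fit on 8 lines, and every interval includes 0.

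Whether the difference between KO and WT lines depended on dysplasia was tested as an interaction. It was called for 0 of the 9 genes and for 0 of 13476 genes (0%), with 241 at an unadjusted p under 0.05 in edgeR's test. Gata6 averaged 69.4 ± 10.9 CPM in dysplastic KO lines and 80.9 ± 6.90 CPM in dysplastic WT lines, and 100.3 ± 19.9 CPM in non-dysplastic KO lines and 77.4 ± 6.43 CPM in non-dysplastic WT lines (SD, n = 2 lines each). The difference of the log2 fold changes was -0.60 with a 95% interval of -1.26 to 0.07 (unadjusted p 0.0726, adjusted p 1 in edgeR's test). For Foxa1 it was -0.45 ± 0.25 and for Foxa2 -0.33 ± 0.23 (SE). In these 2 genes, both dysplastic KO lines lay below both dysplastic WT lines and both non-dysplastic KO lines lay above both non-dysplastic WT lines. That pattern held for 175 of 13476 genes (1.3%). Foxa1 read 195 and 187 CPM in lines 794 and 801, against 200.4 and 231 CPM in lines 565 and 752, and 217 and 282 CPM in lines 650 and 1270, against 197 and 214 CPM in lines 300 and 1269. Without the 6 libraries that stood apart the pattern was lost, as the dysplastic lines then overlapped, with Foxa1 at 228 and 208 CPM in the KO lines 794 and 801, against 210 and 258 CPM in the WT lines 565 and 752.

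Lists of related genes were read in the same fits, and 0 genes of any list passed in the 3 comparisons. The antral list had a median log2 fold change of -0.07 in KO lines against WT lines and of 0.79 in dysplastic against non-dysplastic lines, where 4 of 5 genes were positive. The exception, Isl1, had a log2 fold change of -5.28 there, with a 95% interval of -8.85 to -1.71, and edgeR's adjusted p was 0.649. The median of 0.79 is the value of Gast, with a 95% interval of -2.72 to 4.30. Gast had 0 counts in lines 794, 1270 and 1269 and at most 26 counts in any other line. No size of effect is therefore read from that median. The fundic and corpus list had medians of -0.01 and -0.68, and the forestomach list of -0.03 and 0.53. Over all genes tested the medians were -0.006 and -0.017. The further foregut transcription factors had medians of 0.12 and 0.15 over 23 tested genes. Among lists of other cell types, all 7 tested mesenchymal genes had a positive log2 fold change for KO against WT lines, with a median of 1.25. So did 4 of 5 endocrine genes, with a median of 0.69, and none of these genes passed. The sign did not hold line by line. Acta2 and Thy1, for example, read lower in KO lines 794 and 1270 than in WT lines 565 and 752, and Thy1 had 0 counts in WT lines 300 and 1269. The part of these lists in the values of the 9 factors was not tested. Lines 1269 and 1270, with low Nkx6-3, are both among the 4 non-dysplastic lines.

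Of the 9 factors, 6 were lower in each of the 6 libraries that stood apart than in the sister libraries of the same line. These were Gata4, Gata5, Gata6, Hnf4a, Foxa1 and Foxa2, against a background of 3393 of 13141 genes (25.8%) that were lower in all 6 lines and 3350 (25.5%) that were higher. The median log2 ratio to the sister libraries was -0.81 for Foxa1, -0.67 for Gata4, -0.59 for Hnf4a, -0.55 for Gata6, -0.37 for Foxa2 and -0.21 for Gata5, on the log2(CPM + 1) scale, whereas the median over all genes was 0.01. In line 650, Gata4 read 98.3 CPM in the library that stood apart and 241 CPM in its sister. For Gata4, Gata6, Foxa1 and Gata5 the same direction was seen in the second library of line 1269, which was not among the 6. There Gata4 read 135 CPM, against 177 CPM in the first library, Gata6 56.5 CPM against 86.4 CPM, Foxa1 173 CPM against 248 CPM and Gata5 103.5 CPM against 126 CPM. Hnf4a (253.8 CPM against 255.1 CPM) and Foxa2 (42.0 CPM against 43.6 CPM) hardly differed between these libraries. The second library of line 1270 read close to the first for Gata4 (306 against 318.7 CPM), Gata6 (113.1 against 115.3 CPM) and Foxa1 (279.5 against 282.4 CPM). It was higher for Gata5 (127.2 against 118.6 CPM) and Foxa2 (64.8 against 51.2 CPM), and lower for Hnf4a (223.5 against 308.1 CPM). Pdx1 was lower in 2 and higher in 4 of the 6 libraries that stood apart, with a median log2 ratio of 0.04 and a range of -0.35 to 0.53. The labels give these libraries no batch, and what set them apart was not tested.

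**Figure D4:**
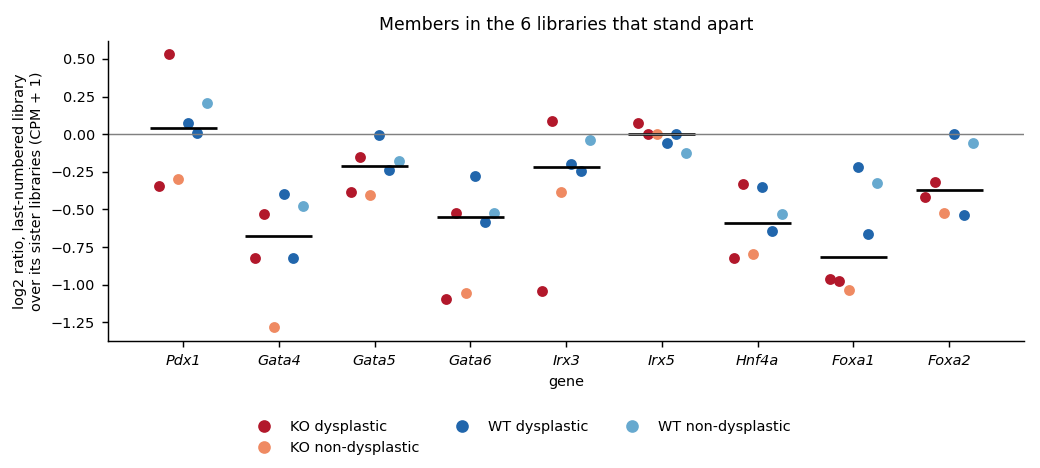
Log2 ratio, on the log2(CPM + 1) scale, of the last-numbered library to the mean of its sister libraries in the 6 lines with a library that stood apart, for each of the 9 genes. Points are lines and bars are medians; Gata4, Gata5, Gata6, Hnf4a, Foxa1 and Foxa2 lie below 0 in all 6 lines, and Pdx1 lies on both sides of 0.

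For the 4 members whose lines spanned more than 1 on the log2(CPM + 1) scale, the genes with the most similar profile over the 8 lines were looked up, by the mean absolute difference of centred log2(CPM + 1). Nearest to Pdx1 were BC026585 (0.091), Pde4d (0.109), which encodes a cyclic AMP phosphodiesterase, and Fes (0.112), which encodes a tyrosine kinase. All of these were lowest in line 1270 and highest in line 794, as Pdx1 was. Among the 3 nearest to Gata4 were Hsd17b14 (0.094) and Cyp4f15 (0.097), both highest in line 1270. For Gata5 they were Ly6g6c (0.065), Zfpm1 (0.081), which encodes the GATA cofactor FOG1, and Tlr1 (0.086), all lowest in line 794. For Irx5 they were Slc3a2 (0.078), Ciart (0.085) and Efcab5 (0.097), all highest in line 794. These are descriptions over 8 lines of which a few set the profile. Cyp4f15, Tlr1, Efcab5 and Ly6g6c were low, reaching at most 0.777, 1.39, 1.33 and 2.59 CPM. At such levels the pseudocount of 1 CPM flattens a profile.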

How the data were processed

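RNA-seq gene counts of 20 mouse gastric organoid libraries were used. The deposited values are raw counts per gene symbol, whole numbers that the authors did not normalise, as the values themselves show, and 0 sample columns were left out. Processing by bcl2fastq and STAR 2.5 and the build mm9 are named per the submitters' processing notes. Not given in the sources used here are the annotation, the counter and the use of strand. Reads of overlapping or antisense transcripts at a member's locus therefore cannot be told apart from its own. Promoters and exon lengths came from RefSeq (GRCm38.p6) and GENCODE vM21, which need not match the annotation used for counting.

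The labels for genotype, dysplasia and mode of KO gave the groups. Counts were summed per line (8 lines) and filtered with filterByExpr, which left 13476 genes. They were TMM-scaled and fitted with edgeR's robust quasi-likelihood test, with one mean per combination of genotype and dysplasia and 4 residual degrees of freedom. A second fit used the 20 libraries as samples with one mean per line (13141 genes, 12 residual degrees of freedom). P-values were adjusted by Benjamini-Hochberg over all genes tested, with a threshold of 0.05, using edgeR 4.0.16, DESeq2 1.42.0 and limma 3.58.1 under R 4.3.3. A log scale uses a pseudocount of 1 CPM, and a line with 0 counts is limited by 3 counts. Limits of that kind cover counting error only. Mean ± SD is over lines. The tests were tested on simulated data. Sister libraries always differed by more than counting noise (chi-square of at least 6.11 per degree of freedom).

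The members and the gene lists were chosen with earlier results of these data known. Named besides the members and Trp53 were, from each list, up to 4 genes called among lines with the smallest p or otherwise up to 3 with the highest mean, and for each member spanning over 1 on the log2(CPM + 1) scale the 3 genes of most similar profile, 1 of which is not reported here. Lgr5, Sox2, Epcam, Cdh1, Atp4b, Trp63, Krt5, Krt6a, Irx1, Irx2, Nkx2-1, Sftpc, Cpa1, Gata3 and Hhex, where outside that rule, were chosen after their values were seen. So were Atp4a, Krt13, Hnf4g and Fabp1. Alternatives included other scaling, filters, tools, a replicate block and leaving out libraries or lines.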

Additional observations from a re-analysis of the deposited data

Results flagged for a closer look

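Member levels were examined in 36 groups of 4 lines for a line that lies far from the other lines, by Dixon's criterion at its 95% critical value for 4 lines, and 4 groups met it. Chance flags about 1 in 20 groups.

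Irx5 read 1.297 CPM in line 794 and at most 0.02905 CPM in the other dysplastic lines (gap over range 0.978). It read 0.3562 CPM in line 1270 and at most 0.0477 CPM in the other non-dysplastic lines (0.866). Both rest on few counts, 45 in line 794 and 11 in line 1270, spread over all libraries of each line.

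Hnf4a read 288.3 CPM in line 300, above the other WT lines at 257.2 to 262.4 CPM (0.833). Gata5 read 80.5 CPM in line 650, below the other non-dysplastic lines at 116.5 to 123.9 CPM, a gap just above the critical value. Lines 650 and 300 each hold a library that stood apart; without these libraries Hnf4a read 343.9 CPM in line 300 and 255.8 to 288.4 CPM in the other WT lines, and Gata5 read 91.8 CPM in line 650 and 115.9 to 126.4 CPM in the other non-dysplastic lines. The gap over range was then 0.63 for Hnf4a and 0.697 for Gata5, so neither met the criterion. For Irx5 it was 0.967 in line 794 and 0.74 in line 1270, so that in line 1270 no longer met it either.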

How the results depend on the processing

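No member was called between KO and WT lines, between dysplastic and non-dysplastic lines or in the interaction under any alternative run. Counts of all genes called moved. KO against WT gave 73 with DESeq2, 220 with libraries as samples and the replicate block, 63 with limma-voom and 0 to 1 with 1 line left out. Dysplasia gave 153, 432 and 144 with those fits and 7 without lines 1269 and 1270, an alternative chosen after seeing the data. Among lines, leaving out a replicate number or a line gave 509 to 3224 calls, the lowest without the libraries numbered 1, and 0 to 3 members, Irx5 included. The replicate block gave 4500 calls, with 3 members among them. Same-numbered libraries did not all deviate together (correlations from -0.39 to 0.70 for number 1, -0.84 to 0.78 for number 2). The 6 pairs of libraries numbered 3, all from the libraries that stood apart, did (0.67 to 0.82). The rule for pairing, which asks this of every pair, was not met.

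Uncalled log2 fold changes turned sign as follows. For KO against WT, Foxa1 was -0.013 with the replicate block and -0.049 with limma-voom, Pdx1 was 0.086 without the 6 libraries that stood apart, and without lines 1269 and 1270 Pdx1 was 0.18, Gata4 -0.183, Gata6 -0.068, Foxa1 -0.012 and Foxa2 -0.015. With 1 line left out, Pdx1 ran from -0.485 to 0.278, Gata4 from -0.109 to 0.294, Gata6 from -0.033 to 0.169, Foxa1 from -0.05 to 0.138 and Foxa2 from -0.007 to 0.172. For dysplasia, the replicate block gave 0.017 for Irx3, 0.017 for Hnf4a and 0.001 for Foxa1, and Gata5 was 0.099 without lines 1269 and 1270. With 1 line left out, Gata5 ran from -0.324 to 0.108, Irx3 from -0.735 to 0.073 and Irx5 from -0.425 to 3.379. For the interaction, Pdx1 was -0.069 without the 6 libraries, and without lines 1269 and 1270 Pdx1 was -0.366, Gata5 0.032 and Hnf4a 0.041. With 1 line left out, Pdx1 ran from -0.563 to 0.998, Gata5 from -0.763 to 0.101 and Irx5 from -0.398 to 7.753. Where a group keeps 1 line, that line is assumed to vary like the others. Fitted Irx5 values depend on the prior count, since groups hold lines with 0 counts; they are no sizes of effect, and the gene was filtered out in some alternatives. The cause of these moves was not tested.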
